A study of Mus musculus with 8 samples.

Results

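Genes of GABAergic interneurons, 8 of the 13996 genes with deposited values, were followed in the cortex of mice on 2 diets. They were picked by gene symbol and comprise Gad1, Gad2 and Slc32a1, which make and package GABA, Pvalb and Lhx6, which mark one branch of the interneurons, and Reln, Nxph1 and Erbb4, which act at the cell surface or outside the cell. Each of the 8 symbols matched 1 gene, and all 8 passed the filter on low values. The cortexes came from male C57BL/6 mice killed at 16 weeks of age. The 4 Normal mice had eaten a conventional diet, and the 4 mice of the high fat diet group (HFD) had eaten a diet with 60% fat by weight since the age of 8 weeks. Each mouse gave 1 library of rRNA-depleted RNA, and the values are FPKM, sequenced fragments divided by transcript length and by library size, rounded to 0.1.

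Cortical interneurons are the inhibitory neurons of the cortex. They convert glutamate into GABA with 2 glutamate decarboxylases, load it into synaptic vesicles, and fall into classes that are named after parvalbumin, somatostatin and vasoactive intestinal peptide. The parvalbumin and somatostatin classes are born in the medial ganglionic eminence of the embryo. The same GABA genes also serve the projection neurons of the striatum and the Purkinje cells and other inhibitory neurons of the cerebellum, and Reln is strongly expressed by cerebellar granule cells, so their level in a piece of tissue depends on which regions it holds.

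Of the 8 genes, 4 were lower in HFD mice (Gad1, Gad2, Slc32a1 and Pvalb), 2 were higher (Lhx6 and Erbb4) and 2 did not pass the test (Reln and Nxph1), at an adjusted p below 0.05 from limma on log2(FPKM + 0.1). Over all 13982 genes tested, 33.1% were called, 15.3% as lower and 17.7% as higher. Pvalb alone among the 8 was called with a fitted ratio between the diets of over 1.5, against 7.13% of all genes, and the FPKM of the diets did not overlap for 4 of the 8 (Gad1, Gad2, Lhx6 and Erbb4), against 31.9% of all genes. The median log2 fold change was -0.13 over the 8 genes and 0.00 over all genes tested. In bulk tissue, fewer cells of a type and less RNA per cell cannot be told apart.

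Markers of other brain regions moved with the diet and among the Normal mice. Of 9 cerebellum markers, 7 had values, and their summed FPKM was 21.8, 256.5, 346.9 and 77.4 in Normal mice 1 to 4 and between 16.1 and 18.9 in HFD mice. Of the 6 tested, 4 were lower in HFD mice and 0 higher, and Gabra6, a receptor subunit of granule cells, was listed at 0 in HFD mouse 1. Normal mice 2 and 3 were far above the other mice in these markers. Of 10 striatum markers, 9 had values and 9 of 9 were lower in HFD mice, with a summed FPKM of 418.5, 343.2, 325.5 and 222.3 in the Normal mice and 73.0 to 82.0 in HFD mice. Thalamus markers, summed, were 37.6, 81.6, 66.7 and 24.1 in Normal mice and 19.4 to 23.6 in HFD mice. The 3 hypothalamus markers with values summed to 2.9, 28.1, 24.8 and 4.1 in Normal mice and 2.0 to 3.3 in HFD mice. Normal mice 2 and 3 were thus the highest in these 2 lists as well. Markers of cortical excitatory neurons, the main cell type of the labelled tissue, were present in all 8 mice, at a summed FPKM of 292.1 to 442.0 in Normal and 487.2 to 577.3 in HFD mice, and 7 of 9 were higher in HFD mice. Results on the 8 genes are therefore also given from a fit with the cerebellum level as a covariate (the mean log2 value of the 6 tested markers) and without Normal mice 2 and 3, the latter chosen after seeing the data. Over all genes tested, the fit of all 8 mice without a covariate called 15.3% lower and 17.7% higher. The covariate fit called 5.29% and the fit without the 2 mice called 19.6%. Diet and striatum RNA cannot be told apart, because all 4 Normal mice lay above all 4 HFD mice in the 9 striatum markers. The cerebellum level was also higher in every Normal mouse (1.42 to 5.25) than in every HFD mouse (0.679 to 0.989). The covariate fit therefore cannot fully separate diet from cerebellum RNA either.

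**Figure D1:**
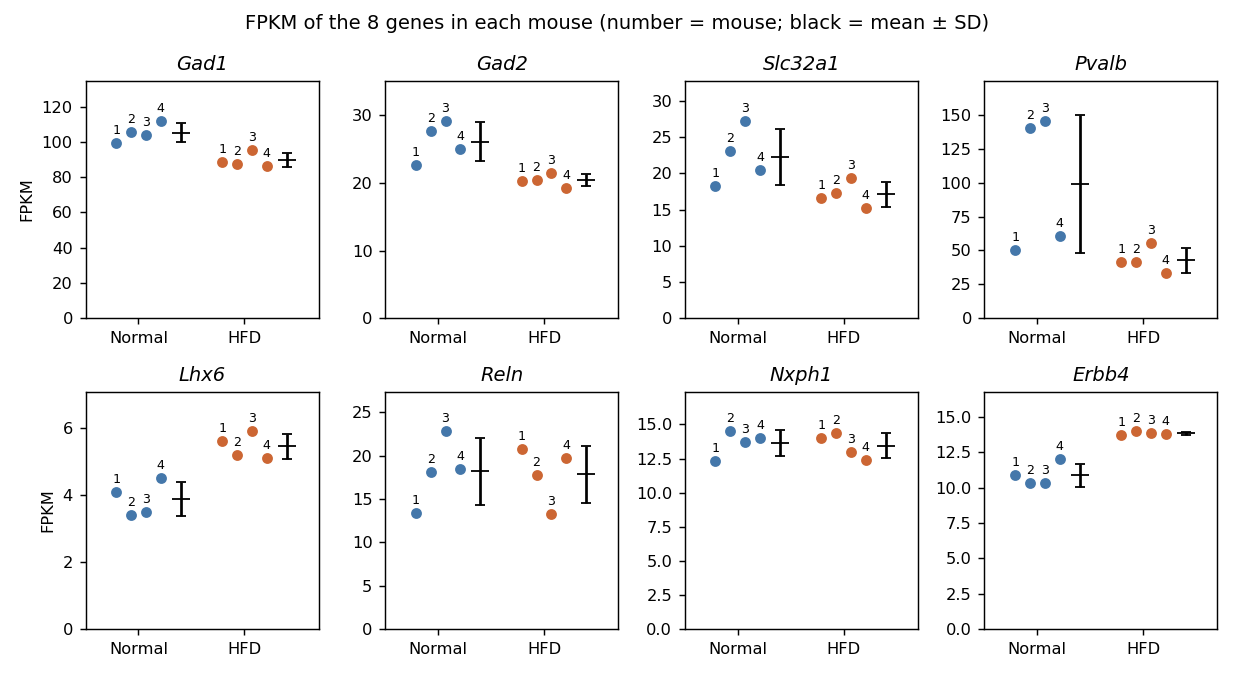
FPKM of each of the 8 genes (vertical axis, from 0) in 4 Normal and 4 HFD mice, numbered by mouse, with the mean ± SD of each diet in black. Gad1 and Gad2 are lower and Lhx6 and Erbb4 higher in every HFD mouse, Pvalb is at 140.3 and 145.8 in Normal mice 2 and 3 and no higher than 60.5 in the other 6 mice, and Reln and Nxph1 overlap fully.

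Gad1 encodes GAD67, the glutamate decarboxylase that supplies most GABA in the cell. It had the highest mean FPKM of the 8 genes on both diets, at 99.2, 105.7, 103.7 and 112.1 in Normal mice and 88.7, 87.7, 95.4 and 86.5 in HFD mice. Every HFD mouse lay below every Normal mouse. The mean fell from 105.2 ± 5.36 (SD, n = 4) to 89.6 ± 3.99 (SD, n = 4), a log2 fold change of -0.23 (standard error, SE, 0.05, limma adjusted p = 0.00863), so that on this scale it fell by 14.8%. Normal mouse 4 was the highest, and it also had the highest summed FPKM of the 4 olfactory bulb markers with values. These sums were 8.6, 8.9, 9.0 and 29.9 in Normal mice 1 to 4 and 3.3 to 5.5 in HFD mice. The part of olfactory bulb RNA in the Gad1 result was not tested. Without Normal mouse 4 the log2 fold change was -0.20 (limma adjusted p = 0.0176). Normal mice 2 and 3 were not the highest for this gene, and without them the log2 fold change was -0.24 (limma adjusted p = 0.0398). With the cerebellum level as a covariate it was -0.20, with a 95% interval from -0.39 to -0.01 (intervals hereafter are of this kind), and the adjusted p was 0.185 from limma.

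Gad2 encodes GAD65, the decarboxylase that is enriched at synaptic terminals. Its FPKM was 22.6, 27.6, 29.2 and 25.0 in Normal mice and 20.3, 20.4, 21.5 and 19.3 in HFD mice. The diets did not overlap, and Normal mice 3 and 2 were the highest. The mean fell from 26.1 ± 2.91 (SD, n = 4) to 20.4 ± 0.90 (SD, n = 4), a log2 fold change of -0.35 (SE 0.08, limma adjusted p = 0.00892). The decrease was -0.22 without Normal mice 2 and 3 (limma adjusted p = 0.0468) and -0.09 with the cerebellum level as a covariate (limma adjusted p = 0.511), and its size thus moved by over 1.5 times between these fits.

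Slc32a1 encodes the vesicular GABA transporter, which loads GABA and glycine into synaptic vesicles. Its FPKM was 18.3, 23.1, 27.3 and 20.5 in Normal mice and 16.6, 17.3, 19.3 and 15.2 in HFD mice. HFD mouse 3 lay above Normal mouse 1, so the diets overlapped. The log2 fold change was -0.37 (SE 0.12, limma adjusted p = 0.0377), from 22.3 ± 3.87 to 17.1 ± 1.71 (SD, n = 4 each). The adjusted p rose above 0.05 in limma without Normal mouse 2 or 3 and without HFD mouse 1, 2 or 4, to between 0.0735 and 0.0926. Without both Normal mice 2 and 3 the log2 fold change was -0.18 (adjusted p = 0.207), and with the cerebellum level as a covariate it was -0.00 (SE 0.13, limma adjusted p = 0.987). The Normal mice stood in 1 order in Gad2, Slc32a1 and Pvalb and in the summed cerebellum markers, with mouse 1 lowest, then 4, then 2, and mouse 3 highest.

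The genes that make and package GABA lie on chromosome 2 of GRCm38, Gad1 (ENSMUSG00000070880.10) on the plus strand at chr2:70553072-70602014, Gad2 (ENSMUSG00000026787.3) on the plus strand at chr2:22622205-22693874 and Slc32a1 (ENSMUSG00000037771.11) on the plus strand at chr2:158610767-158615748. An exon of Slc32a1 overlaps an exon of Gm14205 on the other strand, and the sources used here do not say whether strand was used in counting, so reads there could belong to either gene. The stretches before their RefSeq start sites, leaving out bases after the earliest transcript start of the gene in the GENCODE basic set, are given because all 3 genes were lower in HFD mice. They come from RefSeq for GRCm38.p6 and are written 5′ to 3′ in lower case, with matches to a TATA box (TATAAA) or a CCAAT box (CCAAT) on either strand in capitals. They cover chr2:70561879-70562041 for Gad1, chr2:22622077-22622204 for Gad2 and chr2:158610508-158610757 for Slc32a1, all on the plus strand. The Gad1 stretch lies inside the wider gene span but holds no Gad1 exon of the basic set. The stretch of Slc32a1 also overlaps an exon of another annotated gene, Gm14204.
Gad1: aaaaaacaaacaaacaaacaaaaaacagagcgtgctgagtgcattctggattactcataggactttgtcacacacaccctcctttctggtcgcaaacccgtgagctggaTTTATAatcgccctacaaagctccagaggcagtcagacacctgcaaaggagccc
Gad2: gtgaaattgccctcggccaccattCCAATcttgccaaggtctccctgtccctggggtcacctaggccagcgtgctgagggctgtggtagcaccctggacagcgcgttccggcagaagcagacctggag
Slc32a1: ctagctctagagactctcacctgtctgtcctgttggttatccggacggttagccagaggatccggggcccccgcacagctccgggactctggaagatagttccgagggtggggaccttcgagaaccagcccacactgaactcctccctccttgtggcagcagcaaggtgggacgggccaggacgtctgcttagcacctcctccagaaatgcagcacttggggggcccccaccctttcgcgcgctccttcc

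The Gad1 stretch held 1 TATA box match, the Gad2 stretch held 1 CCAAT match, and the Slc32a1 stretch held neither. In windows of 300 bases around all annotated start sites (250 before and 50 after), a TATA box match was present in 13.6% and a CCAAT match in 37.4% of 32851 windows. The windows of Gad1, Gad2 and Slc32a1 held 21, 14 and 17 CpG dinucleotides, against a median of 7 over all windows. The 8 genes had 11 such windows in all. Of these, 2 held TATAAA, 4 held CCAAT, 1 (Reln) held the E-box CACGTG, which stood in 7.15% of all windows, and 0 held TAATTA, the core motif of many homeobox factors, which stood in 5.29% of all windows.

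Pvalb encodes parvalbumin, the calcium buffer of fast-spiking interneurons, which Purkinje cells also contain. It had the widest spread of the 8 genes, with 50.1, 140.3, 145.8 and 60.5 FPKM in Normal mice and 41.3, 41.1, 55.6 and 33.4 in HFD mice. Normal mice 2 and 3 were more than 2 times as high as any other mouse, and HFD mouse 3 lay above Normal mouse 1. The mean was 99.2 ± 50.9 (SD, n = 4) in Normal and 42.9 ± 9.26 (SD, n = 4) in HFD mice, a log2 fold change of -1.07 (SE 0.34, limma adjusted p = 0.0367), so that on this scale it fell by 52.5%. The call was lost in limma without Normal mouse 2 (-0.85, adjusted p = 0.0937), Normal mouse 3 (-0.83, adjusted p = 0.0851), or HFD mouse 1, 2 or 4 (adjusted p up to 0.0879). Without Normal mice 2 and 3 together it was -0.38 (limma adjusted p = 0.157), with an interval from -0.79 to 0.02. With the cerebellum level as a covariate it turned to 0.15 (SE 0.29, limma adjusted p = 0.793).

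Pvalb (ENSMUSG00000005716.16) lies on the minus strand of chromosome 15 at chr15:78191114-78206400, and no other annotated gene overlaps it. It has 2 start sites in the RefSeq windows, of which the upstream one held 5 CpG dinucleotides and the downstream one 25. The 250 bases before the upstream start, chr15:78206401-78206650 on the minus strand, are shown because this gene moved the most, and they held no match to the 4 motifs.
Pvalb: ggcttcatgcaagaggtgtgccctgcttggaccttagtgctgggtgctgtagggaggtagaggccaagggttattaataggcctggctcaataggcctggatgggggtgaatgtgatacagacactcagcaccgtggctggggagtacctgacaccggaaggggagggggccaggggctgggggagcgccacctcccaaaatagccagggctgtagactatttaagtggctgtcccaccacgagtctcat

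**Figure D2:**
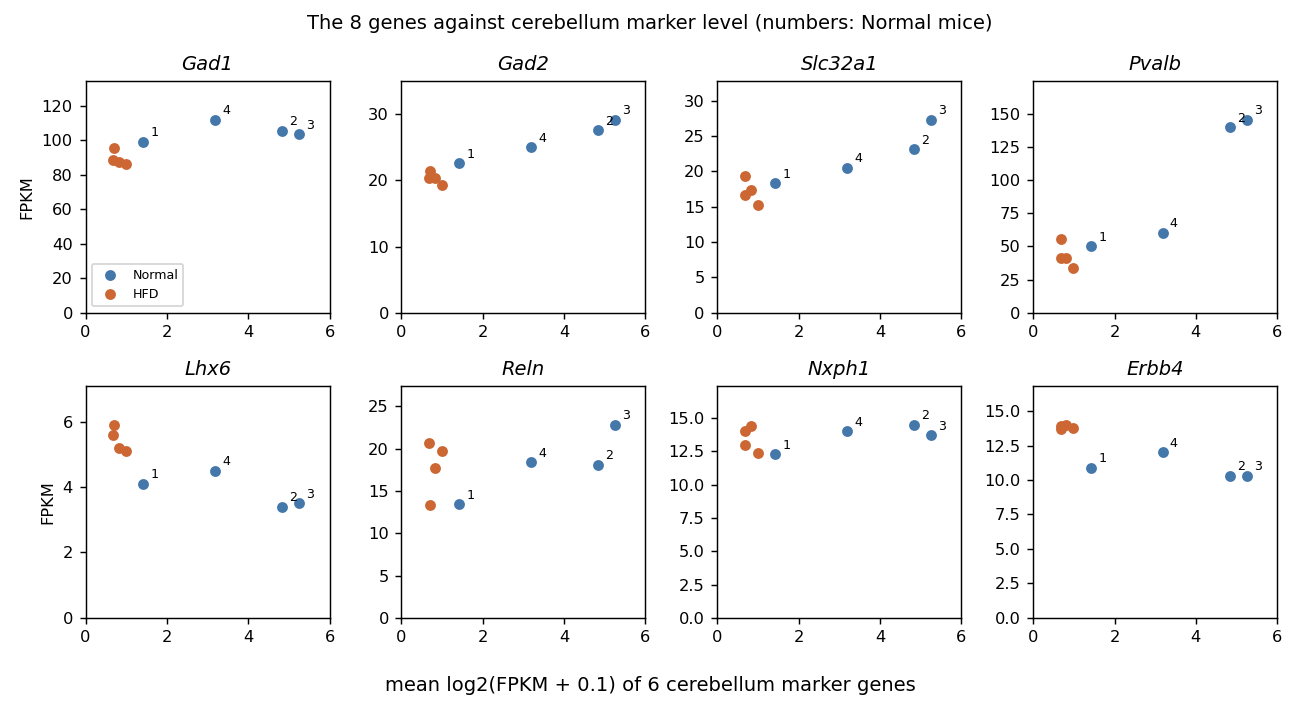
FPKM of each of the 8 genes (vertical axis, from 0) against the mean log2(FPKM + 0.1) of 6 cerebellum marker genes (horizontal axis) in each mouse, with the Normal mice numbered. HFD mice lie between 0.679 and 0.989 on the horizontal axis and Normal mice between 1.42 and 5.25. Gad2, Slc32a1 and Pvalb are higher in the Normal mice with higher cerebellum markers, while Gad1 is not ordered this way. Erbb4 and Lhx6 are lowest in Normal mice 2 and 3, which were also the highest in thalamus and hypothalamus markers.

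Lhx6 encodes a LIM homeobox factor that interneurons of the medial ganglionic eminence, including the parvalbumin and somatostatin classes, keep into adulthood. It was the least abundant of the 8 genes, at 4.1, 3.4, 3.5 and 4.5 FPKM in Normal mice and 5.6, 5.2, 5.9 and 5.1 in HFD mice. Every HFD mouse lay above every Normal mouse, in the direction opposite to Pvalb and the GABA genes. The mean rose from 3.88 ± 0.519 to 5.45 ± 0.37 (SD, n = 4 each), a log2 fold change of 0.49 (SE 0.10, limma adjusted p = 0.00668), or 40.3% higher. Values near 4 FPKM carry a rounding step of 0.1. Without Normal mice 2 and 3, the lowest mice for this gene, the log2 fold change was 0.33 (limma adjusted p = 0.0418), and with the cerebellum level as a covariate it was 0.25 (limma adjusted p = 0.318).

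Erbb4 encodes a receptor tyrosine kinase for neuregulins, which in the cortex is found mainly on interneurons. Its FPKM was 10.9, 10.3, 10.3 and 12 in Normal mice and 13.7, 14, 13.9 and 13.8 in HFD mice. The HFD mice differed among themselves by no more than 0.3 FPKM and all lay above the Normal mice. The mean rose from 10.9 ± 0.802 to 13.9 ± 0.129 (SD, n = 4 each), a log2 fold change of 0.35 (SE 0.06, limma adjusted p = 0.00277), the lowest adjusted p of the 8 genes. It was 0.27 without Normal mice 2 and 3 (limma adjusted p = 0.0193) and 0.26 with the cerebellum level as a covariate, where the interval ran from 0.05 to 0.47 and the adjusted p was 0.127 from limma.

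Lhx6 (ENSMUSG00000026890.19, chr2:36081953-36105408) and Erbb4 (ENSMUSG00000062209.15, chr1:68032186-69108059) lie on the minus strand of chromosomes 2 and 1. An exon of Lhx6 overlaps Gm27953, an annotated gene on the same strand. The 250 bases before their first start sites are shown because both genes rose, from chr2:36105409-36105658 for Lhx6 and chr1:69108060-69108309 for Erbb4, with a CCAAT match in capitals (read as ATTGG where it lies on the other strand).
Lhx6: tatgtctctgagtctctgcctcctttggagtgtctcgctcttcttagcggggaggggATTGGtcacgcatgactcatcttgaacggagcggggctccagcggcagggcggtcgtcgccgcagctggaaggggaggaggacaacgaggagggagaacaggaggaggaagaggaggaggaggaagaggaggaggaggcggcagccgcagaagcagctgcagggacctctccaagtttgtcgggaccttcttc
Erbb4: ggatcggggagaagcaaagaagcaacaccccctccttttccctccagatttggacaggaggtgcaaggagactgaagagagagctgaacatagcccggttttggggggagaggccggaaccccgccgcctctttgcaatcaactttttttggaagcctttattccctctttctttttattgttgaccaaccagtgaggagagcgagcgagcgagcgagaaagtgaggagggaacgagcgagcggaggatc

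Reln encodes reelin, a secreted glycoprotein that guides the layering of the cortex during development and is made by interneurons in the adult. Its FPKM was 13.4, 18.1, 22.8 and 18.4 in Normal mice and 20.7, 17.7, 13.3 and 19.7 in HFD mice. The ranges of the diets were nearly the same, and the lowest mouse of each diet was near 13. The log2 fold change was -0.02 (SE 0.17, limma adjusted p = 0.937), with an interval from -0.40 to 0.36. With the cerebellum level as a covariate it was 0.46 (limma adjusted p = 0.23), and it was 0.16 without Normal mice 2 and 3 (limma adjusted p = 0.566). Reln (ENSMUSG00000042453.14) lies on the minus strand at chr5:21884454-22344702. One of its exons overlaps Gm10475 on the other strand.

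Nxph1 encodes neurexophilin 1, a secreted ligand of alpha-neurexins that is made by subsets of interneurons. Its FPKM was 12.3, 14.5, 13.7 and 14 in Normal mice and 14, 14.4, 13 and 12.4 in HFD mice. The diets overlapped fully, at 13.6 ± 0.943 and 13.4 ± 0.915 (SD, n = 4 each). The log2 fold change was -0.02 (SE 0.07, limma adjusted p = 0.858), and its interval, from -0.17 to 0.14, was narrower than that of Reln. Nxph1 (ENSMUSG00000046178.3) lies on the plus strand at chr6:8948431-9249032.

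**Figure D3:**
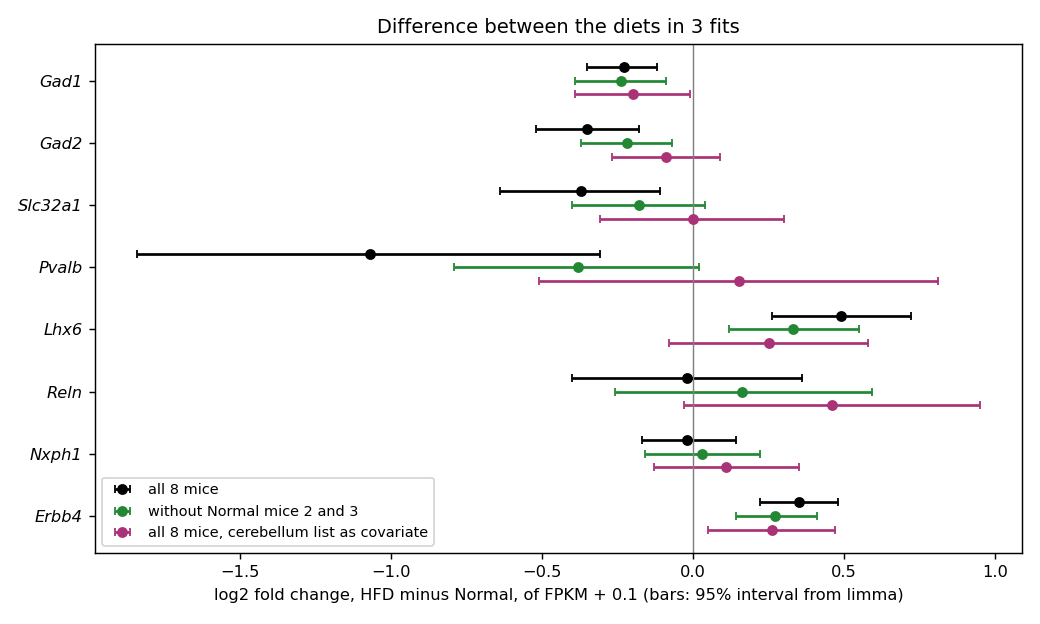
The log2 fold change of each gene (horizontal axis, HFD minus Normal, of FPKM + 0.1) with its 95% interval from limma, in all 8 mice, without Normal mice 2 and 3, and with the cerebellum marker level as a covariate. Gad1 stays between -0.24 and -0.20, Erbb4 between 0.26 and 0.35, and Pvalb moves from -1.07 to 0.15.

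FPKM is corrected for transcript length, so the levels of the 8 genes can be ordered. In Normal mice the order of mean FPKM was Gad1 (105.2), Pvalb (99.2), Gad2 (26.1), Slc32a1 (22.3), Reln (18.2), Nxph1 (13.6), Erbb4 (10.9) and Lhx6 (3.88). The ranges of the 4 mice overlapped between neighbours from Gad2 to Nxph1 and between Gad1 and Pvalb, and they did not overlap at the other 3 steps. In HFD mice the order was Gad1 (89.6), Pvalb (42.9), Gad2 (20.4), Reln (17.9), Slc32a1 (17.1), Erbb4 (13.9), Nxph1 (13.4) and Lhx6 (5.45). There Pvalb lay apart from Gad1, and Slc32a1 from Erbb4, while Erbb4 and Nxph1 overlapped. Reln and Slc32a1 changed places between the diets, as did Erbb4 and Nxph1, and each of these pairs overlapped in the HFD mice.

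The ratio of each gene to Gad1 in the same mouse does not depend on the scaling of the library. Gad2 was 22.8%, 26.1%, 28.2% and 22.3% of Gad1 FPKM in Normal mice and 22.3% to 23.3% in HFD mice. Slc32a1 was 18.4%, 21.9%, 26.3% and 18.3% of Gad1 in Normal mice and 17.6% to 20.2% in HFD mice. For both genes Normal mice 1 and 4 lay within the HFD range, and Normal mice 2 and 3 lay above it. The log2 ratio differed by -0.12 for Gad2 (exact two-sided permutation p = 0.343) and by -0.14 for Slc32a1 (exact p = 0.371). Pvalb was 50.5%, 133%, 141% and 54.0% of Gad1 in Normal mice and 38.6% to 58.3% in HFD mice, a log2 difference of -0.84 (exact p = 0.114).

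Lhx6 and Erbb4 separated the diets in this ratio. This was fixed by the single-gene results, since Gad1 was lower and both genes were higher in every HFD mouse than in any Normal mouse. The 2 ratios are therefore not separate support. Lhx6 was 3.22% to 4.13% of Gad1 in Normal mice and 5.90% to 6.31% in HFD mice, a log2 difference of 0.72 (exact two-sided permutation p = 0.0286, higher in 4 of 4 HFD mice). Erbb4 was 9.74% to 11% of Gad1 in Normal mice and 14.6% to 16.0% in HFD mice, a log2 difference of 0.58 (exact p = 0.0286, higher in 4 of 4 HFD mice). Nxph1 differed by 0.21 (exact p = 0.0571) and Reln by 0.21 (exact p = 0.343). The value 0.0286 is the smallest that 4 against 4 mice allow, and after Benjamini-Hochberg adjustment over the 7 ratios the lowest adjusted p was 0.1, so 0 of 7 passed the adjusted threshold, while 2 of 7 were below 0.05 before adjustment. Without Normal mice 2 and 3, where the number of mice cannot reach 0.05, the log2 differences were 0.57 for Lhx6 and 0.51 for Erbb4, and -0.15 for Pvalb.

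**Figure D4:**
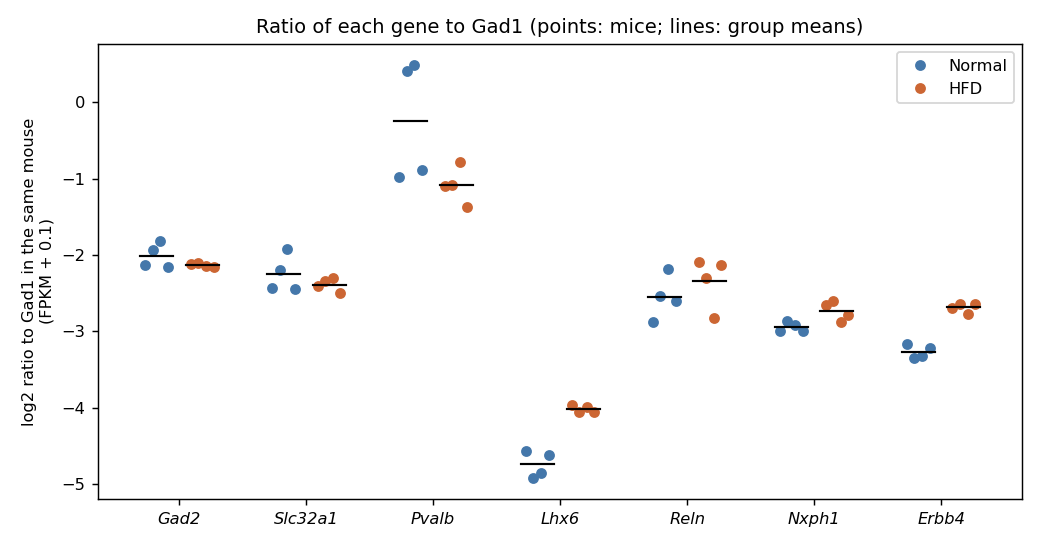
The log2 ratio of 7 genes to Gad1 (vertical axis, FPKM + 0.1) in each mouse, with the mean of each diet as a line. The diets are apart for Lhx6 and Erbb4 and overlap for the other 5 genes, and 2 Normal mice (2 and 3) stand alone at 0.41 and 0.49 for Pvalb.

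Beyond synthesis and packaging, GABA is taken up by transporters and broken down by GABA transaminase (Abat). Its inhibitory action depends on the chloride transporter Slc12a5 (KCC2). Of 10 such genes, 9 were tested, 1 was lower, 1 was higher and 7 did not pass, with a median log2 fold change of 0.02. Among all genes, 15.3% were called lower and 17.7% higher. Abat was 59.9, 74.2, 72.7 and 58.0 FPKM in Normal mice and 54.0 to 56.8 in HFD mice, a log2 fold change of -0.26 (limma adjusted p = 0.0339). Its highest values were again those of Normal mice 2 and 3, without which it was -0.10 (limma adjusted p = 0.145). Slc12a5 was 93.7 to 103.8 FPKM in Normal mice and 112.1 to 130.7 in HFD mice, without overlap, a log2 fold change of 0.27 (limma adjusted p = 0.00742), or 0.23 without Normal mice 2 and 3 (limma adjusted p = 0.0509). Of the 9 genes, 0 passed in limma without those mice (1 below 0.05 before adjustment). With the cerebellum level as a covariate 0 passed (4 before adjustment). In these fits 19.6% and 5.29% of all genes passed.

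Of 15 transcription factors of the interneuron lineage besides Lhx6, 11 were tested, of which 5 were higher, 1 was lower and 5 did not pass. Their median log2 fold change was 0.19, and 17.7% of all genes were called higher and 15.3% lower. Satb1, a chromatin organizer that acts after Lhx6 in the maturation of these cells and that other cortical neurons also express, was 31.3, 21.9, 21.1 and 29.1 FPKM in Normal mice and 51.0, 55.9, 58.3 and 46.2 in HFD mice. This was a log2 fold change of 1.04 (SE 0.13, limma adjusted p = 0.000979), and it was 0.80 without Normal mice 2 and 3 and 0.58 with the cerebellum level as a covariate (limma adjusted p = 0.0033 and 0.0329). Prox1, a factor of interneurons from the caudal ganglionic eminence and of other neurons, was lower, from 5.2 ± 0.956 to 3.20 ± 0.497 FPKM (SD, n = 4 each, log2 fold change -0.68, limma adjusted p = 0.00792). Without Normal mice 2 and 3, and likewise with the cerebellum level as a covariate, Satb1 was the 1 factor of 11 that passed, where 19.6% and 5.29% of all genes did.

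Of 23 genes that mark interneuron subclasses, 22 were tested, 5 were lower, 3 were higher and 14 did not pass, with a median log2 fold change of 0.02. Over all genes, 15.3% were called lower and 17.7% higher. The 3 subclass genes with the largest differences were lower in HFD mice. Calb2 (calretinin) was 11, 71.2, 83.1 and 36.6 FPKM in Normal mice and 7.1 to 10.9 in HFD mice (log2 fold change -2.16, limma adjusted p = 0.0142). Calb1 (calbindin) was 33.6, 58.3, 65.4 and 35.7 in Normal mice and 20.3 to 24.4 in HFD mice (log2 fold change -1.06, limma adjusted p = 0.00457). Both are also made in the cerebellum, and both had the same order of Normal mice as the cerebellum markers. With the cerebellum level as a covariate Calb2 was at 0.02 (limma adjusted p = 0.969) and Calb1 at -0.30 (limma adjusted p = 0.242). Without Normal mice 2 and 3, Calb2 was at -1.19 (limma adjusted p = 0.0763), while Calb1 still passed, at -0.64 (limma adjusted p = 0.00448).

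Tac1, the precursor of substance P, which striatal projection neurons make in quantity, was 31.1, 26.0, 25.3 and 20.8 FPKM in Normal mice and 5.7 to 8.1 in HFD mice. The Normal mice stood in the same order as in the summed striatum markers, and the log2 fold change was -1.81 (limma adjusted p = 0.000126). It was no smaller with the cerebellum level as a covariate, at -1.98 (limma adjusted p = 0.00699). Vip, the peptide of another interneuron class, was higher in each HFD mouse, at 23.1, 17, 13 and 22.4 in Normal and 28.1, 29.7, 30 and 28.1 in HFD mice (log2 fold change 0.65, limma adjusted p = 0.0128). It was 0.35 without Normal mice 2 and 3 (adjusted p = 0.00627) and 0.09 with the covariate (limma adjusted p = 0.735). Sst, the peptide of the other large Lhx6 class, was named after its values were seen, and it was 162.9 to 218.9 in Normal and 190.3 to 233.6 in HFD mice (log2 fold change 0.15, limma adjusted p = 0.32).

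**Figure D5:**
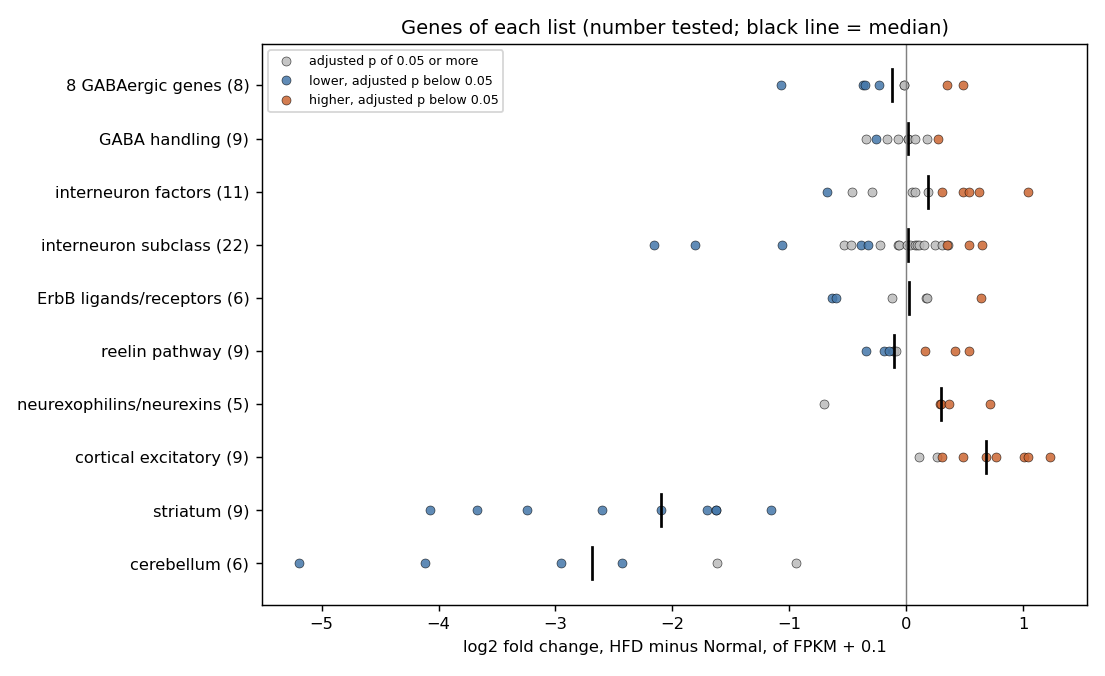
The log2 fold change (horizontal axis, HFD minus Normal, of FPKM + 0.1) of every tested gene of the 8-gene set, 6 related lists and the cortical excitatory, striatum and cerebellum markers, with the median of each list as a line and the number tested in brackets. Blue genes were lower and orange genes higher at an adjusted p below 0.05. The 8 genes lie on both sides of 0, the striatum markers all lie below 0 and the cortical excitatory markers all lie above 0.

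Partners of the 3 surface and secreted proteins were examined with lists of their pathways. Of 9 other ErbB ligands and receptors, 6 were tested, 1 was higher, 2 were lower and 3 did not pass. Their median log2 fold change was 0.03, where 17.7% of all genes were called higher and 15.3% lower. Nrg3, a neuregulin ligand of Erbb4, was 16.1, 12.3, 13.1 and 16.5 FPKM in Normal mice and 22.8, 22.4, 24.6 and 20.5 in HFD mice, a log2 fold change of 0.64 (limma adjusted p = 0.00211). Every HFD mouse lay above every Normal mouse, as in its receptor, and it was 0.46 without Normal mice 2 and 3 (limma adjusted p = 0.00745). Hbegf, a ligand of the EGF receptor that also binds Erbb4, was lower, from 6.22 ± 0.838 to 3.97 ± 0.206 FPKM (log2 fold change -0.63, limma adjusted p = 0.0022). Erbb3 fell from 4.70 ± 0.627 to 3.08 ± 0.435 FPKM (log2 fold change -0.60, limma adjusted p = 0.00651). Erbb3 is a receptor that oligodendrocytes also carry, and 7 of 7 oligodendrocyte markers were lower in HFD mice, with a summed FPKM of 2092.4 to 3448.9 in Normal and 1444.5 to 2007.6 in HFD mice. Their part in the Erbb3 result was not tested. In the fit with the cerebellum covariate limma called 0 of the 6 genes (5.29% of all genes), and 3 of the 6 were below 0.05 before adjustment.

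All 9 genes of the reelin pathway list were tested, and 3 were higher, 3 were lower and 3 did not pass. Their median log2 fold change was -0.10, and the shares over all genes were 17.7% higher and 15.3% lower. The 2 receptors of reelin differed in direction. Vldlr fell from 21.6 ± 1.1 to 17.1 ± 1.51 FPKM (log2 fold change -0.34, limma adjusted p = 0.00575), while Lrp8 (ApoER2), named after its values were seen, rose from 15.9 ± 0.492 to 17.8 ± 0.835 (log2 fold change 0.16, limma adjusted p = 0.0357). Dab1, the adaptor inside the cell that both receptors bind, was 15.4 to 20.2 FPKM in Normal mice and 23.0 to 26.6 in HFD mice (log2 fold change 0.54, limma adjusted p = 0.00234). Fyn, a kinase that phosphorylates Dab1, was lower (log2 fold change -0.19, limma adjusted p = 0.0147), and Rapgef1, an exchange factor further down the pathway, was higher (log2 fold change 0.42, limma adjusted p = 0.00411). Dab1, Fyn, Rapgef1 and Vldlr passed the adjusted threshold without Normal mice 2 and 3 as well. Under the cerebellum covariate 0 of 9 passed in limma (5.29% of all genes), and 4 of the 9 were below 0.05 before adjustment.

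Of 6 other neurexophilins and neurexins, 5 were tested, 4 were higher and 1 did not pass, with a median log2 fold change of 0.30. Of all genes, 17.7% were called higher. Nxph3, a relative of Nxph1 that deep cortical layers express, was 13.3, 12.7, 11.8 and 14.6 FPKM in Normal mice and 26.7, 19.0, 18.4 and 23.1 in HFD mice (log2 fold change 0.72, limma adjusted p = 0.00255). Among the neurexins, which bind neurexophilins at the presynaptic membrane, Nrxn2 rose by 0.37 and Nrxn3 by 0.29 on the log2 scale, with adjusted p-values of 0.00637 and 0.0124 from limma. Without Normal mice 2 and 3, Nrxn3 was at 0.18 with an adjusted p of 0.0827, and Nxph3 and Nrxn2 still passed. With the cerebellum level as a covariate, limma called 0 of 5 (5.29% of all genes), with 2 of the 5 below 0.05 before adjustment.

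Among 9631 other genes whose FPKM averaged 5 or more, those most like each of the 8 genes over the 8 mice were found by Pearson's r of log2 values, which contains the difference between diets and the tissue makeup the mice share. The nearest genes were RP23-155A10.1 and Fam174b for Gad1 (r = 0.984 and 0.970), Lhfpl2 and Tdrd3 for Gad2 (0.991 and 0.988), and Btbd3 and H2-D1 for Slc32a1 (0.983 and 0.979). For Pvalb they were Tmem229b and Psd2 (0.998 and 0.994), for Lhx6 Plppr2 and Nrg3 (0.991 and 0.990), and for Erbb4 Synj1 and Dscaml1 (0.996 and 0.993). Reln (Zc3h11a and Lrrcc1, 0.946 and 0.945) and Nxph1 (Sgpp1 and Gemin7, 0.939 and 0.904) had less close neighbours. With this many genes and 8 mice, high values arise in any search of this kind, and they are given as a description.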

How the data were processed

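RNA was sequenced by the authors from cortexes of 4 Normal and 4 HFD mice, 1 library per mouse, as stranded paired reads. Reads were checked with FastQC and trimmed with Trimmomatic before alignment to mm10 with STAR, and the authors computed the deposited FPKM with Cuffnorm from GENCODE M17 (GRCm38.p6). The sources used here give no tool versions. The authors' stated filter removed genes with a mean under 1 or a 0 in any library, and the 14 of 13996 genes that lay outside it were left out of the tests. FPKM is rounded to 0.1, so reads could not be recovered, depth is unknown and no counting interval is given. FPKM summed to 562431 to 639142 per mouse.

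From these, log2(FPKM + 0.1) was compared between diets with limma 3.58.1 in R 4.3.3, two-sided, with a variance trend and Benjamini-Hochberg adjustment over 13982 genes. Fold changes on this scale understate those of low genes. Ratios to Gad1 were compared by exact permutation over 70 assignments in Python 3.11.15 (numpy 2.4.6, pandas 2.3.3), and figures were drawn with matplotlib 3.10.9. The limma procedure was tested on simulated data in which each gene varied on its own. That test did not cover a regional makeup shared by many genes. Coordinates come from GENCODE M21 and promoter windows from RefSeq (GRCm38.p6), where 8 of 8 symbols matched.

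The members and lists were chosen with earlier results of these data known. In each list the text names up to 4 genes past the adjusted threshold with the largest change, and for each member the 2 genes of most similar pattern. Some genes that this rule names are not reported here. Alternatives were another constant, other filters, scalings and covariates, a fit with no trend, a block for the replicate number, and mice left out. P-values compare the difference between the diets with the spread among mice of the same diet. That difference also carries any regional makeup that differs between the groups.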

Additional observations from a re-analysis of the deposited data

How the results depend on the processing

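Another constant (1), no filter, median-ratio rescaling and quantile normalization left all 6 calls of the 8 genes and their directions in place, and the median log2 fold change of all genes stayed within 0.01 of 0 in each. With a mean FPKM of at least 5, Lhx6 was not tested. Without a variance trend 4 of 8 genes passed (30.5% of all genes), and Slc32a1 (-0.37, adjusted p = 0.0574) and Pvalb (-1.07, adjusted p = 0.0568) did not. In exact permutation tests of single genes, unadjusted, 4 had the smallest possible p of 0.0286, while Slc32a1 (-0.37) and Pvalb (-1.07) each had an exact p of 0.0571.

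With the cerebellum list as a covariate limma called 0 of 8 genes, 2 at an unadjusted p below 0.05. The log2 fold changes were -0.20 (Gad1), -0.09 (Gad2), -0.00 (Slc32a1), 0.15 (Pvalb), 0.25 (Lhx6), 0.46 (Reln), 0.11 (Nxph1) and 0.26 (Erbb4), and 739 of all genes passed in place of 4626. On a linear scale of that covariate, added after seeing the data, 2 passed (Gad1 and Erbb4, where 18.1% of all genes passed), with -0.19 for Gad2, -0.12 for Slc32a1, -0.27 for Pvalb, 0.32 for Lhx6, 0.25 for Reln and 0.04 for Nxph1. The striatum covariate, which follows the diet, left 0 calls among the 8 (1 at an unadjusted p below 0.05) and 0 among all genes, at -0.66 (Gad1), -0.63 (Gad2), -0.78 (Slc32a1), -1.24 (Pvalb), -0.02 (Lhx6) and -0.05 (Erbb4).

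Without Normal mice 2 and 3, added after seeing the data, 4 passed (19.6% of all genes), and Slc32a1 was at -0.18, Pvalb at -0.38, Reln at 0.16 and Nxph1 at 0.03, while the log2 ratios to Gad1 of Gad2 (0.01) and Slc32a1 (0.05) changed sign. With each mouse left out in turn, 4 to 6 genes passed, where 23.6% to 33% of all genes passed. Slc32a1 ranged from -0.46 to -0.27, Pvalb from -1.35 to -0.83, Reln from -0.16 to 0.11 and Nxph1 from -0.07 to 0.02.

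The replicate number as a block changed no call of the 8 genes (Gad1 -0.23, adjusted p = 0.0345, and Pvalb -1.07, adjusted p = 0.0219, from limma) and gave 3390 calls over all genes. Deviations of same-numbered mice correlated at -0.109 to -0.0275, and 0 of 4 Normal mice correlated best with their own number, so the numbers were read as names. Rounding to 0.1 limits Lhx6 the most.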

Other observations

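Among the HFD mice, mouse 3 was the highest and mouse 4 the lowest in each of Gad1, Gad2, Slc32a1, Pvalb and Lhx6, and mouse 3 was the lowest in Reln. HFD mouse 3 also had the highest summed FPKM of cortical excitatory markers (577.3) and mouse 4 the lowest (487.2), while their cerebellum markers summed to 16.1 and 18.8.

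After subtraction of each diet's mean, r over the 8 mice was 0.97 between Gad2 and Slc32a1, 0.96 between Gad2 and Pvalb and 0.92 between Slc32a1 and Pvalb. It was 0.26 to 0.40 between Gad1 and these 3 genes, 0.84 between Lhx6 and Erbb4, and -0.61 and -0.69 between Pvalb and these 2. These values share the tissue makeup of the mice and are given as a description.

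Zc3h11a, a zinc finger gene and the nearest to Reln, varied more than Reln did. It was 2.6, 5.1, 11.6 and 6.8 FPKM in Normal mice and 10.7, 9.0, 3.0 and 9.2 in HFD mice, with its lowest values in the mice that were lowest in Reln on each diet.

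Of 4 markers of Cajal-Retzius cells, the early source of reelin in the outermost layer, 0 had values here (not analysed here).

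Of other marker lists, limma called 3 of 7 thalamus, 1 of 4 olfactory bulb and 1 of 3 hypothalamus genes lower in HFD mice. It called 2 of 6 astrocyte and 2 of 4 endothelial genes, also all lower. In each direction it called 1 oligodendrocyte precursor gene of 5. Over all genes tested, limma called 33.1%, 15.3% as lower and 17.7% as higher. It called 0 of 5 microglia genes, with 1 (Tmem119, log2 fold change 0.27) below 0.05 before adjustment.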
